A study of Mus musculus with 36 samples.

Results

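Pctp, Tbc1d1, Abcg1, Zfp69 and Ifi202b are 5 mouse genes that have been proposed as causal genes of obesity or diabetes loci mapped with the New Zealand Obese strain. They were chosen by gene symbol, and all 5 were among the 24265 genes of the deposited count table. The data are 36 bulk RNA sequencing libraries of mouse hypothalamus, the brain region that regulates feeding, body temperature and hormone release. The mice were of the inbred strains C57BL/6J, the reference strain, NZO/HlLtJ, a polygenic model of obesity and type 2 diabetes, and CAST/EiJ, a wild-derived strain, and the labels give the genotype of each as wild type. Each strain received a control diet (10% fat with fiber) or a high-fat, high-sugar diet (HFHS, 44% fat with fiber) from 6 weeks of age, and tissue was collected at 15 weeks. Strain, diet and sex formed 12 groups of 3 libraries. The labels do not say whether the libraries of a group came from separate animals, so the p-values measure the spread between these libraries.

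The 5 genes act in separate pathways. Pctp encodes phosphatidylcholine transfer protein, a START-domain protein that moves this phospholipid between membranes. Tbc1d1 encodes a Rab GTPase-activating protein that restrains the movement of glucose transporter vesicles to the cell surface until it is phosphorylated by insulin or energy-sensing kinases. Abcg1 encodes an ATP-binding cassette transporter that exports sterols from cells, and its transcription is driven by the liver X receptors. Zfp69 encodes a zinc finger protein with a KRAB domain, the domain that recruits the corepressor TRIM28. Ifi202b belongs to the interferon-inducible PYHIN genes, which lie in a cluster of related genes and include the DNA sensor gene Aim2. Earlier genetic work described a deletion at Ifi202b in C57BL/6J, a loss-of-function deletion of Tbc1d1 in the SJL strain, and a transposon insertion in Zfp69 in NZO and C57BL/6J that truncates its transcript. None of these alleles was typed in the present libraries.

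The loci lie on 5 chromosomes, and the positions given are GRCm38 positions of the deposited table. Pctp (ENSMUSG00000020553) lies on chromosome 11 from 89982665 to 90002894, on the minus strand. Tbc1d1 (ENSMUSG00000029174) lies on chromosome 5 from 64156305 to 64351486, on the plus strand. Abcg1 (ENSMUSG00000024030) lies on chromosome 17 from 31057698 to 31115777, on the plus strand. Zfp69 (ENSMUSG00000064141) lies on chromosome 4 from 120930137 to 120951699, on the minus strand. Ifi202b (ENSMUSG00000026535) lies on chromosome 1 from 173962568 to 173982744, on the minus strand. GENCODE M21 lists all 5 as protein-coding genes, with 1 transcript each for Pctp and Ifi202b, 8 for Tbc1d1, 5 for Abcg1 and 4 for Zfp69.

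The sequences upstream of the transcription start are shown for Ifi202b, Mndal and Pctp. Mndal is a PYHIN gene of the same cluster as Ifi202b whose level went the opposite way between strains. Pctp is the other named gene with a strain difference above 1.5-fold. Each run gives the 250 bases before the start in the C57BL/6J reference (RefSeq, GRCm38.p6), and the NZO/HlLtJ and CAST/EiJ sequences were not analysed here. C57BL/6J is the strain with the described deletion at Ifi202b, so the Ifi202b window may differ from the upstream sequence in NZO/HlLtJ. Capitals mark matches on either strand to the interferon response element (GAAA, any 2 bases and GAAA again), the STAT-binding GAS element TTCNNNGAA, the TATA box TATAAA, the GC box GGGCGG or the CCAAT box. The Ifi202b window is chr1:173982845-173983094, the Mndal window, 1 of 2 listed for that gene, is chr1:173880188-173880437, and the Pctp window is chr11:90002895-90003144, all on the minus strand.
Ifi202b: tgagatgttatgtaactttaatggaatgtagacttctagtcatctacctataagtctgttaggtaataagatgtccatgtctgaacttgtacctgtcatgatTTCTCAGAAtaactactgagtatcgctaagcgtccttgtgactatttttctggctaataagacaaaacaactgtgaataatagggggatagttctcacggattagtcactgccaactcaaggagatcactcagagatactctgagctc
Mndal: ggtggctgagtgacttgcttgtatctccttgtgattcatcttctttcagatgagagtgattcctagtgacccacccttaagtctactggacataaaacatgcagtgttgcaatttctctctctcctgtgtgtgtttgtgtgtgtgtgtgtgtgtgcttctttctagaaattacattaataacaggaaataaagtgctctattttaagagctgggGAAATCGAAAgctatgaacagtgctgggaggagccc
Pctp: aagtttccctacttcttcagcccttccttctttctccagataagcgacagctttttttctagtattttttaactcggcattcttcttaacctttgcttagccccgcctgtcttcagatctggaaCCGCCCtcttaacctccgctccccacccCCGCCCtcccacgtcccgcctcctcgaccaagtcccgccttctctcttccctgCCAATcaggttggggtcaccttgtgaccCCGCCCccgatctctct
The Ifi202b window held 1 GAS element, which 7.02% of all 32851 RefSeq windows of this length hold, and no interferon response element. The Mndal window held 1 interferon response element, found in 2.98% of windows. The other window of that gene, chr1:173879959-173880208, overlaps it only at the edge. It held 1 interferon response element at a different position, outside the overlap, and 1 CCAAT box. The Pctp window held 3 GC boxes and 1 CCAAT box, found in 32.7% and 33.8% of windows. A TATA box, found in 12.4% of windows, was in none of the 3 windows. The Ifi202b window had 3 CpG dinucleotides and a GC content of 38.4%, against 12 and 54.8% for Pctp and medians of 6 and 52.4% over all windows. The 2 windows listed for Zfp69 held 4 and 5 GC boxes, and of the 2 listed for Tbc1d1 one held 4 GC boxes and the other none of the motifs. A match marks only the letters and not a bound site.

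The 36 libraries held between 23.9 and 47.3 M counts each (median 34.6 M), and levels are given in counts-per-million (CPM). CAST/EiJ control female 1 stood apart, with a summed level of pituitary markers of 2470 CPM. CAST/EiJ control male 1 had 293 CPM, the other CAST/EiJ libraries 33.7 to 76.8 CPM, and no NZO/HlLtJ or C57BL/6J library more than 50.1 CPM. In CAST/EiJ control female 1 the summed endothelial markers were the lowest of the CAST/EiJ group at 116 CPM and the oligodendrocyte markers the highest at 6000 CPM. Markers of hypothalamic neurons were present in every group, with Pomc at 47.9 ± 9.81, 44 ± 7.15 and 46 ± 17.3 CPM (SD, n = 12 each) in libraries of C57BL/6J, of NZO/HlLtJ and of CAST/EiJ. Other markers of this list differed by strain. At an adjusted p under 0.05 by edgeR, 3 of the 16 were higher and none lower in NZO/HlLtJ than in C57BL/6J. In CAST/EiJ 6 were higher and none lower than in C57BL/6J, and in NZO/HlLtJ 2 were higher and 6 lower than in CAST/EiJ. Over all tested genes 26.6%, 55.5% and 53.7% passed in these comparisons. Glial markers also differed by strain. In NZO/HlLtJ 8 of 8 oligodendrocyte markers were lower than in C57BL/6J (summed level 3140 to 4270 against 4140 to 6530 CPM) and 4 of 8 astrocyte markers higher (4510 to 6100 against 3910 to 4490 CPM). Their part in the strain differences of the genes and lists below was not tested.

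The 5 genes differed widely in level. Scaled to the length of their merged exons, mean levels over all 36 libraries were 10.2 CPM per kb for Abcg1, 5.09 for Tbc1d1, 0.679 for Pctp, 0.525 for Zfp69 and 0.16 for Ifi202b. This order of Abcg1 and Tbc1d1 above the other three held in each strain, with 10.7 ± 0.651 CPM per kb for Abcg1 and 5.24 ± 0.45 for Tbc1d1 in CAST/EiJ (SD, n = 12). Pctp and Zfp69 were close in CAST/EiJ, at 0.496 ± 0.159 and 0.539 ± 0.127 CPM per kb, within the spread of the libraries. In NZO/HlLtJ, Ifi202b at 0.461 ± 0.159 CPM per kb came within the spread of Zfp69 at 0.514 ± 0.131, while in the other strains it was at or near 0. Of the variation in log2 CPM between libraries, strain carried 93.9% for Ifi202b, 47.2% for Pctp, 29.9% for Abcg1, 14.1% for Tbc1d1 and 0.663% for Zfp69. Diet carried at most 3.66% (Abcg1) and sex at most 5.01% (Pctp).

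**Figure D1:**
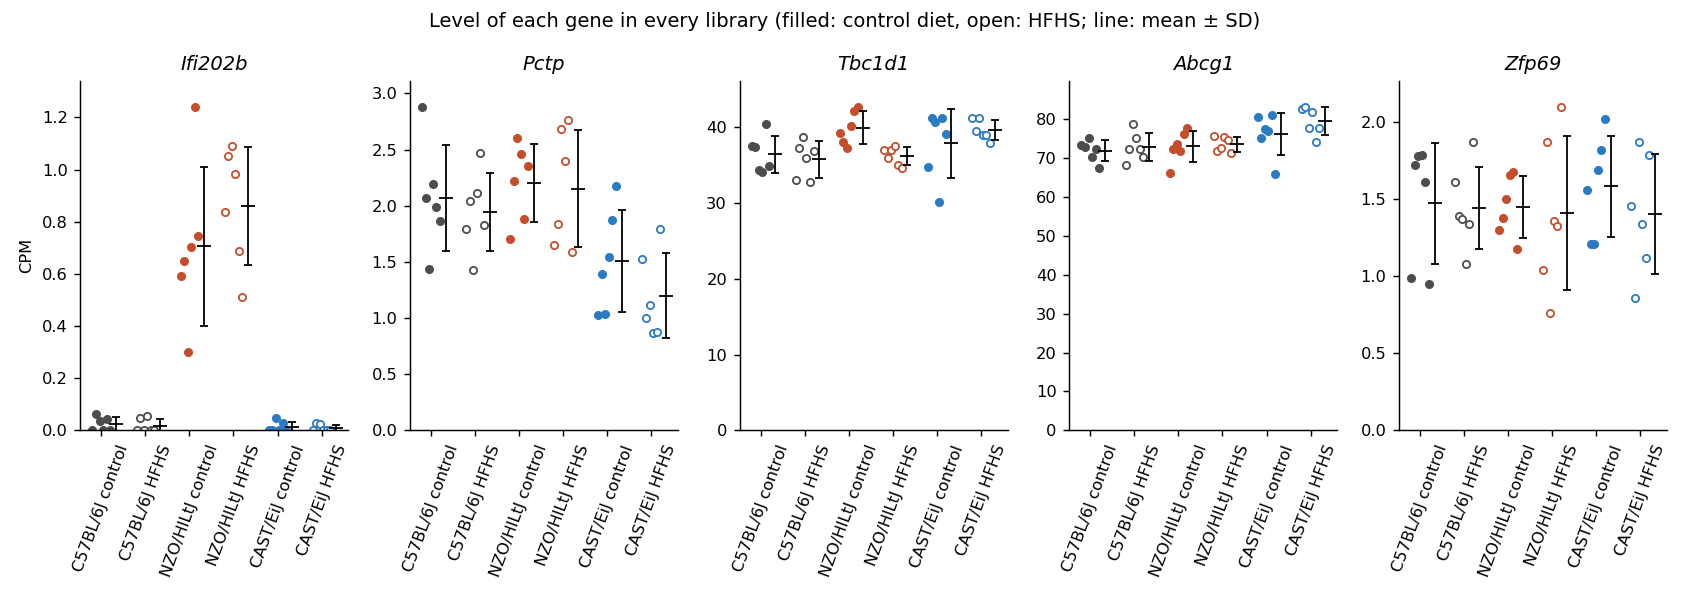
CPM of each gene in every library, by strain and diet, with filled points for the control diet, open points for HFHS and black lines for the mean ± SD of 6 libraries. Ifi202b was above 0.3 CPM in all 12 NZO/HlLtJ libraries and below 0.1 CPM in all 24 others, Pctp was lower in CAST/EiJ, and the groups of the other genes overlapped.

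Strain differences were tested with edgeR's quasi-likelihood test over both diets and sexes, and a gene was called at a Benjamini-Hochberg adjusted p under 0.05 over the 20053 genes tested. Between NZO/HlLtJ and C57BL/6J 1 of the 5 genes was called, Ifi202b, which passed the expression filter only through its NZO/HlLtJ libraries, against 26.6% of all tested genes. Between NZO/HlLtJ and CAST/EiJ 3 were called, Ifi202b and Pctp higher in NZO/HlLtJ and Abcg1 lower, against 53.7% of all tested genes. Between CAST/EiJ and C57BL/6J 3 were called, Pctp lower in CAST/EiJ and Abcg1 and Tbc1d1 higher, against 55.5% of all tested genes. These counts do not stand apart from the shares over all genes. The 3 comparisons share libraries pairwise, so they are not independent of each other.

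Ifi202b RNA was present in NZO/HlLtJ and at or near 0 in the other strains. Its 12 NZO/HlLtJ libraries lay between 0.301 and 1.24 CPM with a median of 0.725, which corresponds to 8 to 50 counts per library and 354 in all. In C57BL/6J 7 of 12 libraries had 0 counts, the highest had 0.0637 CPM, and the strain total was 8 counts. In CAST/EiJ 8 of 12 libraries had 0 counts, the highest had 0.0493 CPM, and the total was 5 counts. A count of 0 allows a level of up to 0.0728 to 0.122 CPM in these libraries (3 counts of the library total), which covers counting error only. The strains did not overlap: the lowest NZO/HlLtJ library was above every library of the other strains.

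The ratio of summed Ifi202b counts, scaled to the library totals, was 38 between NZO/HlLtJ and C57BL/6J (95% interval 19.1 to 88.7) and 66.9 between NZO/HlLtJ and CAST/EiJ (28.4 to 207), with exact binomial intervals for counting error. The edgeR estimates, which depend on the prior count where a group is near 0, were 5.06 ± 0.43 and 5.69 ± 0.45 log2 (n = 12 and 12). On the deposited variance-stabilized log2 scale, which compresses low levels, the differences were 0.394 and 0.41. C57BL/6J and CAST/EiJ were both under the 3-count limit, and no fold is given between them. Because the filter let Ifi202b through only where it was high, its p with the filter is not given. In the edgeR fit of all genes with no expression filter the differences of Ifi202b were 5.06 and 5.7 log2. The deposited table itself holds only genes above 0 in at least 19 of the 36 libraries. Ifi202b was at 0 in 15 of the 24 libraries of the other strains, so it is in the table only through NZO/HlLtJ. For this reason the p of that fit is not given either. By group, NZO/HlLtJ levels were 0.663 ± 0.0785 CPM in control females, 0.75 ± 0.474 in control males, 0.994 ± 0.136 in HFHS females and 0.727 ± 0.237 in HFHS males (SD, n = 3 each). The widest spread was in the control males, which ran from 0.301 to 1.24 CPM.

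Mndal, an interferon-inducible PYHIN gene (ENSMUSG00000090272, chromosome 1, 173857220 to 173942491, minus strand), has its deposited nearest edge 20.1 kb from Ifi202b. This deposited span holds all of Mnda and most of Ifi203, both on the same strand. The RefSeq window of Mndal given above lies inside the span, so the RefSeq start is farther from Ifi202b than that edge. How reads were assigned among these overlapping genes is not known. Mndal had the opposite strain pattern to Ifi202b. It was at 0.637 to 1.57 CPM in C57BL/6J (mean 1.00 ± 0.286, SD, n = 12) and at 0.246 to 0.936 CPM in CAST/EiJ (0.535 ± 0.219). In NZO/HlLtJ it had 0 counts in 8 of 12 libraries, 6 counts in all and at most 0.0568 CPM. Summed and scaled to library totals, Mndal counts were 71.6 times as high in C57BL/6J (95% interval 32.6 to 197) and 39.9 times as high in CAST/EiJ (18 to 110) as in NZO/HlLtJ. The edgeR differences, which depend on the prior count where a group is near 0, were −6.24 ± 0.39 log2 against C57BL/6J and −5.31 ± 0.42 log2 against CAST/EiJ. Mndal passed the expression filter only through its C57BL/6J and CAST/EiJ libraries, so its p with the filter is not given. No library of either gene in NZO/HlLtJ overlapped the other strains.

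**Figure D2:**
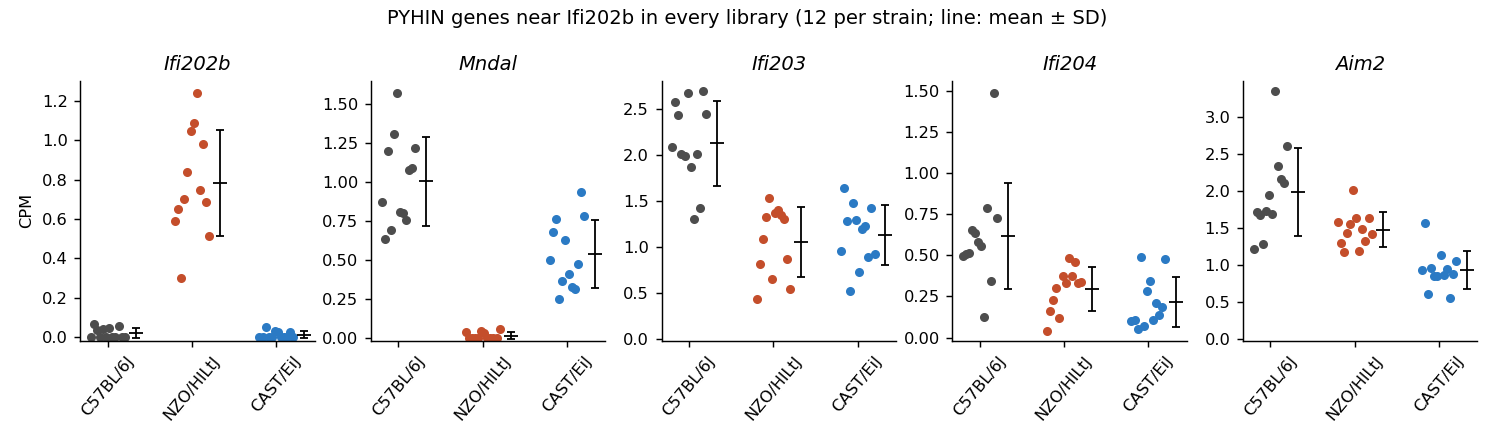
CPM of 5 PYHIN genes in the 12 libraries of each strain, with black lines for the mean ± SD. Ifi202b was present in NZO/HlLtJ and near 0 elsewhere, Mndal was near 0 in NZO/HlLtJ and present elsewhere, and Ifi203, Ifi204 and Aim2 were higher in C57BL/6J with overlapping libraries.

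Of 18 listed genes comprising the PYHIN family and Hsd11b1, the gene of the enzyme that regenerates active glucocorticoid and that earlier work linked to Ifi202b in fat, 11 were in the table and 9 were tested. In NZO/HlLtJ against C57BL/6J, 6 were lower (Mndal, Pydc4, Ifi203, Pyhin1, Ifi204 and Aim2) and 1 higher (Ifi202b), with a median of −0.998 log2 against 0.00404 over all tested genes. Ifi203, a nuclear PYHIN gene 19.9 kb from Ifi202b, was at 1.06 ± 0.379 CPM in NZO/HlLtJ and 2.13 ± 0.455 in C57BL/6J (0.501 times the C57BL/6J level, adjusted p = 7.49e-05). Aim2, the DNA sensor that starts inflammasome assembly, was at 1.48 ± 0.232, 0.937 ± 0.256 and 1.98 ± 0.586 CPM in NZO/HlLtJ, CAST/EiJ and C57BL/6J, and each pair of strains differed (adjusted p = 0.0234, 0.00023 and 1.5e-07 for NZO/HlLtJ against C57BL/6J, NZO/HlLtJ against CAST/EiJ and CAST/EiJ against C57BL/6J). In CAST/EiJ against C57BL/6J 7 of the 9 were lower and 1, Hsd11b1, was higher (median −1.08 log2 against 0.000969 over all genes). In NZO/HlLtJ against CAST/EiJ 2 were higher (Ifi202b and Aim2) and 2 lower (Mndal and Hsd11b1), with a median of 0.654 log2 against −0.0012. Over all tested genes 26.6%, 55.5% and 53.7% were called in these comparisons, in the order given. The counts and medians of the list include Ifi202b, Mndal and Pydc4, which passed the expression filter only through the strains where they were high.

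Hsd11b1 had a strain order other than that of Ifi202b. It was at 8.11 ± 0.62 CPM in NZO/HlLtJ and 9.18 ± 1.43 CPM in C57BL/6J (log2 difference −0.17 ± 0.07, adjusted p = 0.0854), and at 19.8 ± 4.58 CPM in CAST/EiJ, where it was 2.14-fold above C57BL/6J (log2 1.10 ± 0.07, adjusted p = 5.04e-14). Its CAST/EiJ libraries ran from 16 to 30.7 CPM and did not overlap the NZO/HlLtJ libraries, which ran from 7.15 to 9.39. The highest value was that of CAST/EiJ control female 1, the library rich in pituitary transcripts. The next highest, 26.8 CPM, was that of CAST/EiJ control female 3. The rest of the family was low. Pyhin1 was at 0.135 ± 0.0902 CPM in NZO/HlLtJ and 0.344 ± 0.224 in C57BL/6J, and its call (adjusted p = 0.011) was lost without C57BL/6J control female 3 (adjusted p = 0.079). Pydc4 had 6 counts in all NZO/HlLtJ libraries and 78 in C57BL/6J.

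Some PYHIN genes share similar sequence, and the reads of all strains were assigned on GRCm38, the build in the submitters' processing notes. The deposited counts of such genes can therefore be split between copies. For any gene of this family a difference in sequence or copy number cannot be told apart from a difference in transcription. Interferon-responsive genes are active in microglia, blood and endothelium, and the summed markers of these cells overlapped between NZO/HlLtJ and C57BL/6J: microglia 224 to 289 and 233 to 275 CPM, endothelium 219 to 295 and 228 to 301 CPM, and blood 709 to 1880 and 467 to 1230 CPM. Of these lists, 3 of 8 microglial markers were higher and 2 lower in NZO/HlLtJ, 1 of 10 endothelial and 3 of 9 blood markers were higher, and none of these markers was at 0 in a library of either strain. Over all tested genes 26.6% were called between these strains. Their part in the Ifi202b and Mndal differences was not tested.

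Pctp was lower in CAST/EiJ than in both other strains. The CAST/EiJ libraries lay at 0.871 to 2.18 CPM (median 1.25), those of C57BL/6J at 1.43 to 2.88 (median 2.01) and those of NZO/HlLtJ at 1.59 to 2.76 (median 2.28), so the ranges overlapped. Means were 1.35 ± 0.433, 2.01 ± 0.402 and 2.18 ± 0.423 CPM (SD, n = 12 each), from 570, 760 and 959 counts. The log2 difference of CAST/EiJ from C57BL/6J was −0.61 ± 0.13 (adjusted p = 0.000241), and that of NZO/HlLtJ from CAST/EiJ was 0.73 ± 0.13 (adjusted p = 2.13e-05). NZO/HlLtJ and C57BL/6J differed by 0.12 ± 0.13 (adjusted p = 0.553), less than the spread between libraries. Without CAST/EiJ control female 1 the CAST/EiJ difference from C57BL/6J was −0.584 (adjusted p = 0.000449).

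Of the endothelial markers 4 of 10 were lower in CAST/EiJ than in C57BL/6J and none higher, a smaller share than the 55.5% of all tested genes called. Their summed level was 191 to 247 CPM in CAST/EiJ apart from 116 CPM in control female 1, with no marker at 0. Of the blood markers 4 of 9 were lower and none higher (332 to 1970 against 467 to 1230 CPM), with Slc4a1 at 0 in 1 CAST/EiJ library. Oligodendrocyte markers were also lower there, 8 of 8, at 2060 to 6000 CPM against 4140 to 6530 CPM. The part of cell composition in the Pctp difference was not tested, and in bulk tissue fewer cells of a type and less RNA per cell cannot be told apart.

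Within CAST/EiJ the Pctp values of the sexes lay apart in part. The 6 females lay at 1 to 2.18 CPM (1.65 ± 0.401) and the 6 males at 0.871 to 1.39 CPM (1.05 ± 0.191), with some overlap. The difference of 0.64 ± 0.19 log2 had an unadjusted p of 0.00211 by edgeR but did not pass over all genes (adjusted p = 0.112). It passed in 1 of the 36 fits that each left out a library, that without CAST/EiJ control female 2 (adjusted p = 0.0347). By group, Pctp was at 1.87 ± 0.322 CPM in control females, 1.44 ± 0.401 in HFHS females, 1.15 ± 0.207 in control males and 0.956 ± 0.142 in HFHS males (SD, n = 3 each). In C57BL/6J and NZO/HlLtJ the sexes differed by 0.16 ± 0.18 and −0.13 ± 0.18 log2. None of the 5 genes was called between the sexes in any strain, against 0.194%, 0.0698% and 0.185% of all tested genes for C57BL/6J, NZO/HlLtJ and CAST/EiJ. The CAST/EiJ share depended strongly on which library was left out, as the last section gives.

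**Figure D3:**
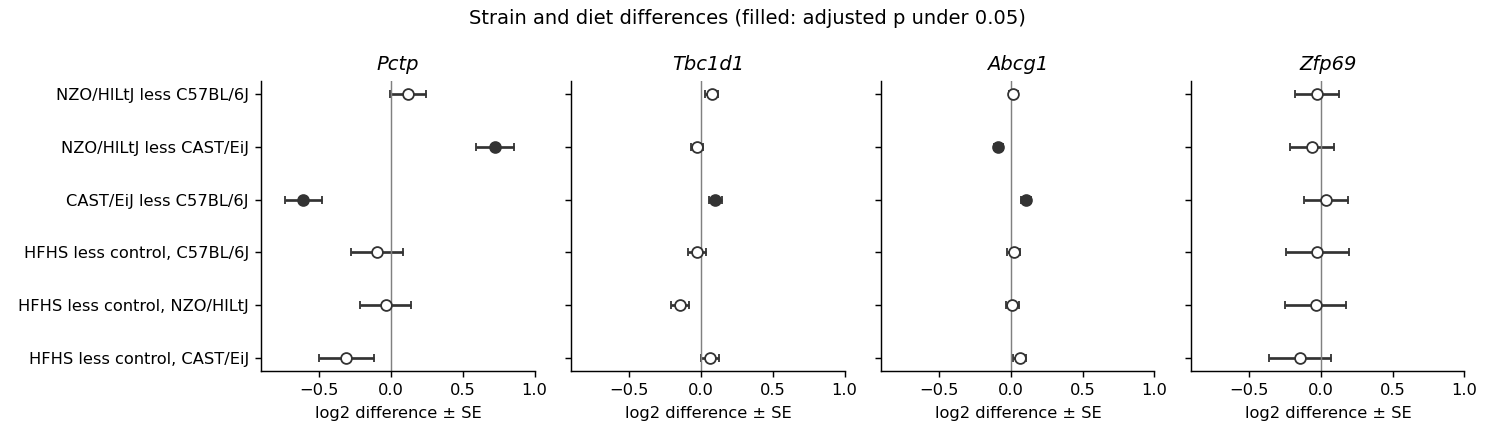
Log2 differences ± SE of Pctp, Tbc1d1, Abcg1 and Zfp69 for the strain comparisons (12 against 12 libraries) and the diet comparisons within a strain (6 against 6), with filled points for an adjusted p under 0.05. Pctp shows the largest differences, up to 0.73 between NZO/HlLtJ and CAST/EiJ, and no diet difference is filled.

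The list of START-domain lipid transfer genes, which includes Pctp, held genes called in both directions. Of 17 tested genes 4 were higher and 3 lower in NZO/HlLtJ than in C57BL/6J (median 0.0426 log2), 6 higher and 5 lower than in CAST/EiJ (median 0.0094), and 4 were higher and 5 lower in CAST/EiJ than in C57BL/6J (median −0.0538). Over all tested genes the medians were 0.00404, −0.0012 and 0.000969 log2, and 26.6%, 53.7% and 55.5% were called, and the lists described here are to be read against these values. Acot11, an acyl-CoA thioesterase gene with a START domain, was lower in NZO/HlLtJ at 52.4 ± 1.43 CPM (50.3 to 55.6) than in C57BL/6J at 91.3 ± 5.98 CPM (80 to 98.1), with no overlap (log2 −0.80 ± 0.05, adjusted p = 4.34e-15). It was equally apart from CAST/EiJ at 93.2 ± 10.3 CPM (log2 −0.83 ± 0.05, adjusted p = 5.83e-16). Star, which delivers cholesterol to mitochondria for steroid synthesis, was at 2.01 ± 0.462 CPM in CAST/EiJ against 6.34 ± 0.65 in NZO/HlLtJ and 6.26 ± 0.478 in C57BL/6J (log2 1.67 ± 0.09, adjusted p = 4.69e-16, and −1.65 ± 0.09, adjusted p = 6.67e-16). Stard4, a soluble sterol carrier gene, was higher in NZO/HlLtJ at 53 ± 7.49 CPM than in C57BL/6J at 44.4 ± 2.13 CPM (adjusted p = 0.000274).

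Tbc1d1 was nearly level across strains. Libraries lay at 32.8 to 40.4 CPM in C57BL/6J (36.1 ± 2.32, SD, n = 12), 34.7 to 42.7 in NZO/HlLtJ (38.1 ± 2.56) and 30.1 to 41.3 in CAST/EiJ (38.8 ± 3.33), with wide overlap. NZO/HlLtJ differed from C57BL/6J by 0.08 ± 0.04 log2 (adjusted p = 0.22) and from CAST/EiJ by −0.03 ± 0.04 (adjusted p = 0.644). The CAST/EiJ difference from C57BL/6J of 0.10 ± 0.04 log2 was called at an adjusted p of 0.0492, beside the threshold. DESeq2 gave an adjusted p of 0.0511 and median-ratio scaling in edgeR one of 0.0531.

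The Tbc1d1 call also depended on single libraries. It was lost in 24 of the 36 fits that each left out a library, with adjusted p from 0.00424 to 0.157. It remained without CAST/EiJ control female 1, control male 1 or HFHS female 3, without C57BL/6J control female 1, control male 2, HFHS female 2 or HFHS male 1, and without NZO/HlLtJ control male 3, control female 3 or any of the 3 HFHS females. CAST/EiJ control female 1, the library rich in pituitary transcripts, had the lowest Tbc1d1 level of all 36 at 30.1 CPM, and without it the difference was 0.128 log2 (adjusted p = 0.00424).

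On the HFHS diet Tbc1d1 in NZO/HlLtJ was at 34.7 to 37.6 CPM (36.2 ± 1.18, SD, n = 6), against 37.3 to 42.7 CPM (40 ± 2.16) on the control diet. The ranges overlapped only at their edges. The log2 difference of −0.14 ± 0.06 had an unadjusted p of 0.0274 by edgeR and did not pass over all genes (adjusted p = 0.401). In C57BL/6J the difference was −0.03 ± 0.06 and in CAST/EiJ 0.07 ± 0.06 log2. The diet difference in NZO/HlLtJ less that in CAST/EiJ was −0.21 ± 0.09 log2 (adjusted p = 0.187), and it passed in 1 of 36 fits, that without CAST/EiJ control female 2 (adjusted p = 0.0468). Against C57BL/6J it was −0.12 ± 0.09 log2 (adjusted p = 0.89).

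Among the genes of glucose transporter vesicle traffic, Slc2a4 had the largest strain difference. It encodes GLUT4, the insulin-responsive transporter whose vesicles Tbc1d1 restrains. Slc2a4 was at 1.62 to 2.9 CPM in C57BL/6J (2.1 ± 0.371), 4.42 to 7.32 in NZO/HlLtJ (5.39 ± 0.902) and 3.2 to 6.82 in CAST/EiJ (4.68 ± 1.04), so no C57BL/6J library reached the other strains. It was 2.55-fold higher in NZO/HlLtJ (log2 1.35 ± 0.09, adjusted p = 4.61e-13) and 2.21-fold higher in CAST/EiJ than in C57BL/6J (log2 1.14 ± 0.09, adjusted p = 8.68e-12). Slc2a3, the neuronal glucose transporter, was lower in CAST/EiJ at 87.9 ± 3.98 CPM than in NZO/HlLtJ at 126 ± 5 CPM (log2 0.51 ± 0.03, adjusted p = 1.54e-16) and C57BL/6J at 122 ± 5.25 CPM.

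Slc2a1, the transporter of the blood-brain barrier and glia, was lower in NZO/HlLtJ at 92.2 ± 7.93 CPM than in CAST/EiJ at 115 ± 12 CPM (log2 −0.32 ± 0.06, adjusted p = 1.62e-05). Prkab2, a regulatory subunit of the AMP-activated kinase that phosphorylates TBC1D1, was higher in CAST/EiJ at 40.7 ± 2.47 CPM than in C57BL/6J at 32.3 ± 1.5 CPM (log2 0.33 ± 0.04, adjusted p = 1.76e-09). Rab14, a vesicle GTPase gene that is a target of the TBC1D1 protein, was lower in NZO/HlLtJ at 222 ± 14.6 CPM than in C57BL/6J at 247 ± 13.3 CPM (adjusted p = 0.000434). Of the 24 tested genes in this list, which includes Tbc1d1, 1 was higher and 6 lower in NZO/HlLtJ than in C57BL/6J, with a median of −0.0398 log2, a called share close to the 26.6% of all tested genes. Against CAST/EiJ 3 were higher and 7 lower (median −0.0331), and CAST/EiJ had 7 higher and 5 lower than C57BL/6J (median 0.0189), both below the 53.7% and 55.5% of all tested genes.

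Abcg1 was the most abundant of the 5 genes and was slightly higher in CAST/EiJ. Libraries lay at 67.4 to 78.7 CPM in C57BL/6J (72.3 ± 3.1, SD, n = 12), 66.1 to 77.6 in NZO/HlLtJ (73.2 ± 3.02) and 65.9 to 83.1 in CAST/EiJ (77.8 ± 4.75), and all 3 ranges overlapped. CAST/EiJ differed from C57BL/6J by 0.11 ± 0.03 log2 (adjusted p = 0.00557), a call kept in all 36 fits that each left out a library. NZO/HlLtJ differed from CAST/EiJ by −0.09 ± 0.03 log2 (adjusted p = 0.0217) and from C57BL/6J by 0.02 ± 0.03 (adjusted p = 0.722).

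The Abcg1 call between NZO/HlLtJ and CAST/EiJ was lost in 11 of the 36 fits, with adjusted p over all 36 from 0.0039 to 0.1. These 11 left out NZO/HlLtJ control females 1 and 2, control males 1 and 2 or HFHS male 3, or CAST/EiJ control females 1 and 2, control male 3, HFHS females 1 and 2 or HFHS male 2, one library at a time. On HFHS the level of Abcg1 differed from control by 0.02 ± 0.05, 0.01 ± 0.04 and 0.06 ± 0.04 log2 for C57BL/6J, NZO/HlLtJ and CAST/EiJ, less than the spread between libraries.

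Among genes of sterol sensing and efflux, those with the smallest p were called in both directions. Nr1h3, the liver X receptor alpha gene, was at 3.58 to 4.86 CPM in NZO/HlLtJ (4.2 ± 0.442), 2.23 to 3.62 in C57BL/6J (2.95 ± 0.427) and 1.2 to 3.23 in CAST/EiJ (2.13 ± 0.513), and the NZO/HlLtJ and CAST/EiJ libraries did not overlap. The log2 difference was 0.51 ± 0.09 from C57BL/6J (adjusted p = 5.34e-05) and 1.00 ± 0.09 from CAST/EiJ (adjusted p = 1.47e-10). Abca1, the cholesterol exporter that acts before Abcg1, was higher in NZO/HlLtJ at 95 ± 10.9 CPM than in C57BL/6J at 77.3 ± 8.59 CPM (adjusted p = 0.000832). Npc1, which releases cholesterol from lysosomes, was lower in NZO/HlLtJ at 78.7 ± 3.65 CPM (75.1 to 86.5) than in C57BL/6J at 99.2 ± 3.54 CPM (90.8 to 103), without overlap (log2 −0.33 ± 0.03, adjusted p = 2.11e-09). Scarb1, a lipoprotein receptor gene, was at 27.4 ± 1.55, 22.6 ± 1.74 and 19.1 ± 1.7 CPM for C57BL/6J, NZO/HlLtJ and CAST/EiJ, and each pair differed (adjusted p = 2.52e-05, 4.69e-05 and 6.02e-11 for the first against the second, the second against the third and the first against the third).

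Of the 20 tested sterol genes, which include Abcg1, 5 were higher and 2 lower in NZO/HlLtJ than in C57BL/6J (median −0.0373 log2), 8 higher and 4 lower than in CAST/EiJ (median 0.0488), and 3 higher and 9 lower in CAST/EiJ than in C57BL/6J (median 0.00101), beside 26.6%, 53.7% and 55.5% of all tested genes called. The median absolute differences of the list, 0.098, 0.14 and 0.142 log2, were below those of all tested genes, 0.119, 0.207 and 0.215 log2. Cyp27a1, the sterol 27-hydroxylase gene, was the only gene of the 5 pathway lists called outside the strain comparisons. Its diet difference in NZO/HlLtJ less that in CAST/EiJ was 0.79 ± 0.21 log2 (adjusted p = 0.0487), with 0.55 ± 0.15 in NZO/HlLtJ and −0.24 ± 0.15 in CAST/EiJ, neither called by itself. This Cyp27a1 call was lost in 31 of the 36 fits that each left out a library.

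**Figure D4:**
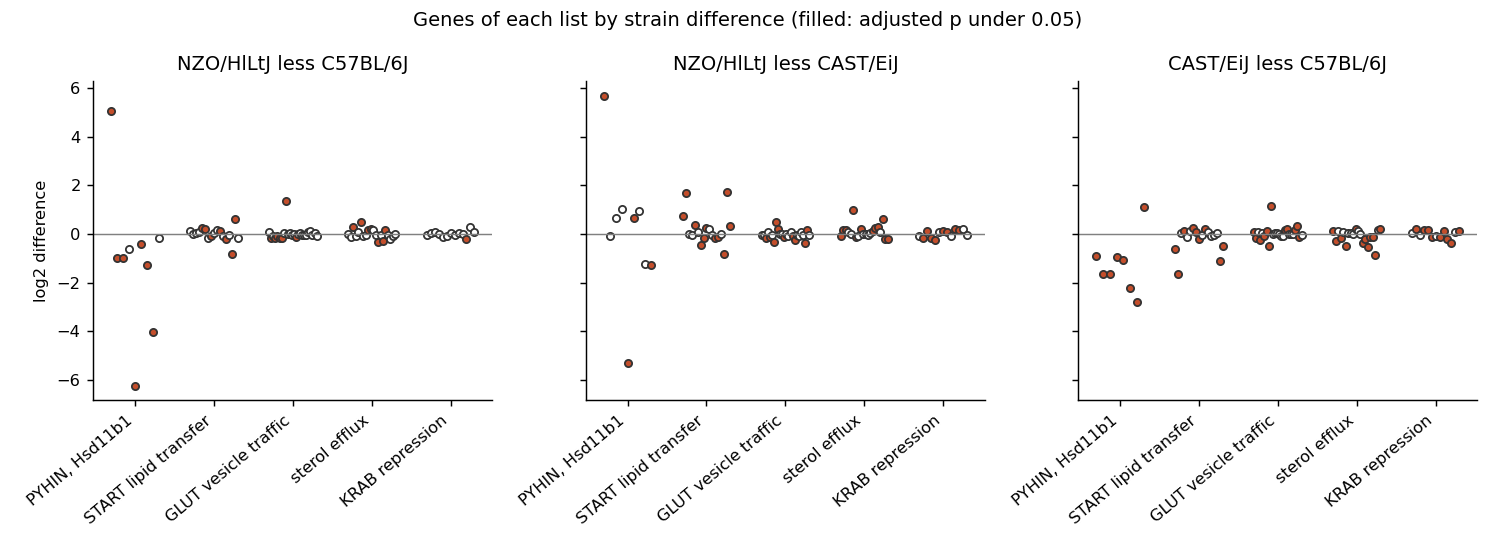
Log2 difference of each tested gene of the 5 lists for the 3 strain comparisons, with filled points for an adjusted p under 0.05. Ifi202b at 5.06 and 5.69 and Mndal at −6.24 and −5.31 are the highest and lowest points of their panels, and Ifi202b is left out of the CAST/EiJ and C57BL/6J panel because both strains were under the 3-count limit.

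Zfp69 was called in none of the 11 comparisons, and its strains overlapped throughout. Libraries lay at 0.953 to 1.87 CPM in C57BL/6J (1.46 ± 0.321, SD, n = 12), 0.76 to 2.1 in NZO/HlLtJ (1.43 ± 0.364) and 0.857 to 2.02 in CAST/EiJ (1.5 ± 0.354), from 537, 636 and 630 counts. The log2 differences were −0.02 ± 0.15 for NZO/HlLtJ less C57BL/6J (adjusted p = 0.936), −0.06 ± 0.15 for NZO/HlLtJ less CAST/EiJ (adjusted p = 0.757) and 0.04 ± 0.15 for CAST/EiJ less C57BL/6J (adjusted p = 0.856). NZO/HlLtJ libraries held 25 to 89 Zfp69 counts, and small differences were not detectable at this depth. Gene-level counts add all transcripts, so a truncated and a full-length Zfp69 transcript cannot be told apart. NZO/HlLtJ females were at 1.26 ± 0.371 CPM and males at 1.6 ± 0.284 (log2 −0.34 ± 0.21, adjusted p = 0.952, n = 6 and 6).

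The list of Zfp69 and the corepressor and silencing genes through which KRAB zinc finger proteins act had 1 of 13 tested genes called between NZO/HlLtJ and C57BL/6J, Pphln1, beside 26.6% of all tested genes. Pphln1 was lower in NZO/HlLtJ (39.9 ± 2.8 against 45.4 ± 2.84 CPM, log2 −0.19 ± 0.04, adjusted p = 0.00172). The count was 2 with median-ratio scaling, the strict filter, DESeq2, limma, an additive sex term or only the libraries compared. Pphln1 encodes periphilin, a subunit of the HUSH silencing complex. Trim28, the corepressor bound by KRAB domains, was higher in CAST/EiJ at 138 ± 5.07 CPM than in NZO/HlLtJ at 124 ± 8.17 CPM (adjusted p = 0.000429) and C57BL/6J at 121 ± 9.45 CPM (adjusted p = 3.81e-05). In CAST/EiJ 5 of the 13 were higher and 4 lower than in C57BL/6J (median 0.0373 log2), and NZO/HlLtJ had 5 higher and 3 lower than CAST/EiJ (median 0.0663), beside 55.5% and 53.7% of all tested genes called.

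None of the 5 genes was called for diet in any strain. Over all tested genes 0% were called in C57BL/6J, 0.145% in NZO/HlLtJ and 0.12% in CAST/EiJ. None was called for the difference of the diet effect in NZO/HlLtJ from that in C57BL/6J or CAST/EiJ, with 0% and 1.8% of all tested genes called. The shares for diet in CAST/EiJ and for the difference from CAST/EiJ depended strongly on which library was left out, as the last section gives. For the C57BL/6J diet comparison edgeR gave 687 genes at an unadjusted p under 0.05 and DESeq2 called 3, and for the NZO/HlLtJ and C57BL/6J difference edgeR gave 1336 and DESeq2 called 5. Ifi202b in NZO/HlLtJ was at 0.86 ± 0.226 CPM on HFHS and 0.706 ± 0.307 CPM on control diet (log2 0.25 ± 0.38, adjusted p = 0.901, n = 6 and 6). Pctp on HFHS differed by −0.10 ± 0.18 log2 in C57BL/6J, −0.04 ± 0.18 in NZO/HlLtJ and −0.31 ± 0.19 in CAST/EiJ, the last with 1.2 ± 0.377 CPM against 1.51 ± 0.46 CPM on control diet (adjusted p = 0.403).

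The tested genes within 500 kb of each gene are given beside the 26.6% of all tested genes called between NZO/HlLtJ and C57BL/6J and the 55.5% between CAST/EiJ and C57BL/6J. Around Pctp, none of 5 tested neighbours was called between NZO/HlLtJ and C57BL/6J, and the nearest on each side, Tmem100 (27.5 kb) and Ankfn1 (205 kb), were called in no strain comparison. Stxbp4, 474 kb away, was lower in CAST/EiJ than in C57BL/6J as Pctp was, at 23.6 ± 2.57 against 32.5 ± 1.75 CPM (log2 −0.46, adjusted p = 1.19e-09). Around Abcg1, 7 of 13 tested neighbours were higher and 2 lower in CAST/EiJ than in C57BL/6J, and 3 were higher and 2 lower in NZO/HlLtJ than in C57BL/6J. Rsph1, a radial spoke gene of motile cilia 139 kb away, was at 10.1 ± 1.22, 27.5 ± 2.13 and 69.2 ± 22.8 CPM for C57BL/6J, NZO/HlLtJ and CAST/EiJ (log2 2.76 for CAST/EiJ less C57BL/6J, adjusted p = 9.87e-20). Glo1, the glyoxalase gene 445 kb away, was at 208 ± 20.3 CPM in CAST/EiJ and 99.1 ± 4.04 in C57BL/6J (log2 1.07, adjusted p = 6.97e-22).

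Around Tbc1d1, 1 of 10 tested neighbours was called between NZO/HlLtJ and C57BL/6J, Gm3716 (242 kb, log2 1.99, adjusted p = 1.42e-06). Pgm1 (28 kb), a phosphoglucomutase gene, was higher in CAST/EiJ at 9.13 ± 1.48 CPM than in C57BL/6J at 7.11 ± 0.504 CPM (log2 0.36, adjusted p = 3.62e-05). Around Zfp69, the nearest neighbours on each side, Exo5 (5.12 kb) and Smap2 (16.6 kb), were not called between NZO/HlLtJ and C57BL/6J (adjusted p = 0.534 and 0.0868), and 1 of 11 tested neighbours was, Scmh1 (42.7 ± 1.8 against 39.5 ± 2.07 CPM, log2 0.11, adjusted p = 0.00822). Around Ifi202b, 6 of 10 tested neighbours were lower and 1 higher in NZO/HlLtJ than in C57BL/6J. These 6 are the genes already counted as lower in the PYHIN list, so they are not a separate result. In CAST/EiJ 8 of the 10 were lower than in C57BL/6J and none higher, and these 8 include all genes of the PYHIN list counted as lower there.

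**Figure D5:**
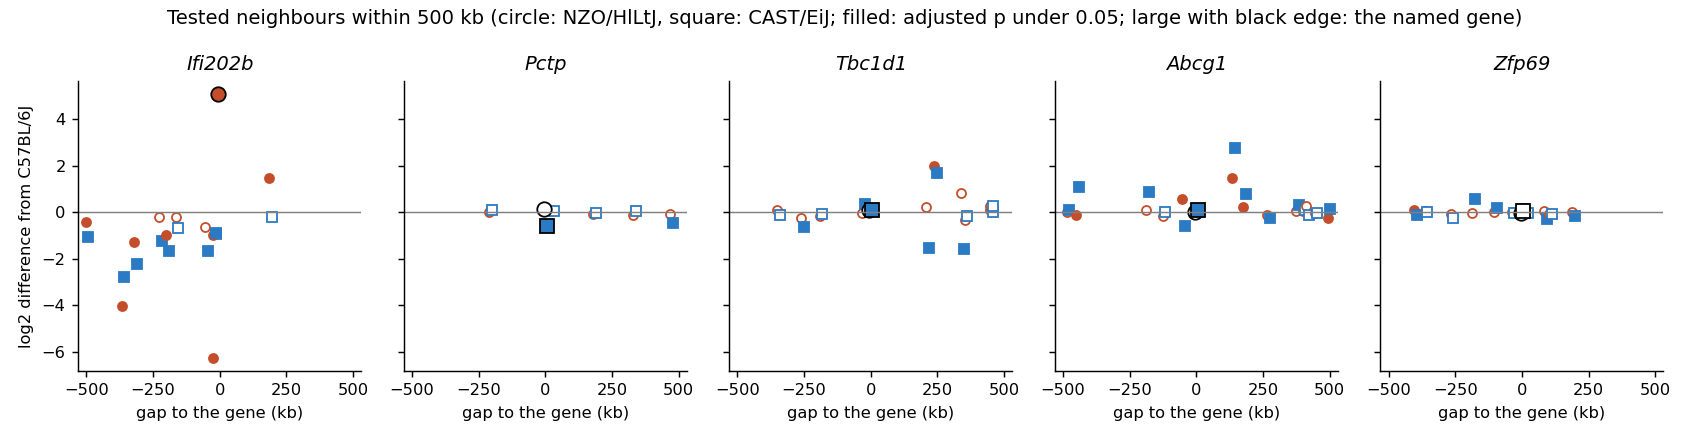
Log2 difference from C57BL/6J of the tested genes within 500 kb, by their gap to the named gene in kb (negative values lie at lower coordinates), with circles for NZO/HlLtJ, squares for CAST/EiJ filled symbols for an adjusted p under 0.05 and large black-edged symbols for the named gene. The neighbours of Ifi202b lie mostly below 0 and those of Pctp and Zfp69 between −0.46 and 0.56, while Rsph1 near Abcg1 reaches 2.76.

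Genes whose level followed each of the 5 most closely were found by Pearson correlation of log2 CPM over the 36 libraries among 13831 genes, given as a description because the libraries share strains and depth. For Ifi202b they were Hist2h2aa2 (r = 0.962), Zfp949 (0.956) and Lrat (0.952), all higher in NZO/HlLtJ. After strain means were removed these values were −0.033, −0.036 and 0.25, so the likeness lay in the strain difference. Lrat, which esterifies retinol, was at 10.3 CPM in NZO/HlLtJ, 1.2 in C57BL/6J and 0.877 in CAST/EiJ. For Pctp they were Tapbpl, a peptide-loading gene of antigen presentation (0.799, and 0.57 within strains), Ifi35 (0.774 and 0.5) and Vwa1 (0.774 and 0.5), all lowest in CAST/EiJ. For Tbc1d1 they were Dapk1 (0.745), Mdga1 (0.743) and Trio (0.739), which kept 0.77, 0.73 and 0.71 within strains. For Abcg1 they were Plxnb2 (0.726), Stat5b (0.719) and Mavs (0.714), and for Zfp69 Camk2n2 (0.549), Mocs3 (0.539) and Tmem151a (0.529), the lowest values of the 5 genes.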

How the data were processed

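RNA sequencing of polyadenylated RNA from hypothalamus was analysed from 2 gene tables. The authors deposited expected counts per gene, in which 20.1% of values lay more than 0.01 from a whole number; these were rounded before testing. The authors also deposited log2 values after a variance-stabilizing transformation, made with DESeq2 per the submitters' processing notes, which also name GRCm38. The sources used here do not give the aligner, the counter, the annotation or whether strand was used. Genes that overlap or share sequence are therefore uncertain. The table holds genes above 0 in at least 19 of the 36 libraries. Libraries were grouped by strain, diet and sex from their labels, and no 2 libraries held identical values.

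Counts were normalized by TMM and tested with edgeR 4.0.16 (quasi-likelihood F-test, R 4.3.3) with a mean for each of the 12 groups (24 residual degrees of freedom), after the edgeR expression filter (10 counts, scaled to library size, in as many libraries as the smallest group has, and 15 in total). The 11 contrasts were 3 for strain, 3 for diet, 2 for differences of the diet effect and 3 for sex. Log2 changes are ± standard error and CPM levels are means ± SD. Intervals and 0-count limits cover counting error only. Positions are as deposited, exon lengths come from GENCODE M21 and upstream sequences from RefSeq (4 of the 5 genes matched). The code was tested on simulated data.

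The genes and lists were chosen with earlier results of these data known. Named genes are the 5 genes, up to 4 genes of each list with the smallest p among those called in a contrast, the nearest tested neighbours and up to 3 called neighbours within 500 kb, and the 3 most correlated genes with a mean of at least 1 CPM (log2 CPM with a prior count of 2); Mndal and Hsd11b1 were followed further after their values were seen. Alternatives were median-ratio size factors, no filter, a strict filter (1 CPM in 18 libraries), DESeq2 1.42.0, limma 3.58.1 on the deposited log2 values, an additive sex term, only the libraries compared, each diet alone, and each library left out. The design had assumed whole counts. Spike-in transcripts were not analysed here, and 1 neighbouring gene is not reported here.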

Additional observations from a re-analysis of the deposited data

How the results depend on the processing

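Over 230 combinations of gene, comparison and setting, 218 kept direction and call, 10 lost a call and 2 changed sign. The Pctp calls of the strain comparisons held in each setting that tests them and with each library left out. The Ifi202b calls also held wherever Ifi202b was tested. It entered the fits or the deposited table only through its NZO/HlLtJ libraries, so this lends its calls no support. Ifi202b and most PYHIN genes do not pass the strict filter. Of the PYHIN list, called genes between NZO/HlLtJ and C57BL/6J numbered 2 with the strict filter and 4 with either diet alone, against 7. The Tbc1d1 difference of CAST/EiJ from C57BL/6J was not called with median-ratio size factors (0.1 log2), no filter (0.0979), DESeq2 (0.101), limma on the deposited values (0.0714), only the libraries compared (0.101), the control diet alone (0.0553) or HFHS alone (0.148). Abcg1 for NZO/HlLtJ less CAST/EiJ was not called with only the libraries compared (−0.0802) or control alone (−0.0612), nor for CAST/EiJ less C57BL/6J on control alone (0.0845). Tbc1d1 for NZO/HlLtJ less CAST/EiJ changed sign on control alone (0.079), and Zfp69 for CAST/EiJ less C57BL/6J on HFHS alone (−0.0218). The causes were not tested. Counts of called genes moved by over 1.5 times as follows: NZO/HlLtJ against C57BL/6J had 3160 on HFHS alone; diet in C57BL/6J 3 with DESeq2; diet in NZO/HlLtJ 150 with DESeq2, 16 with an additive sex term and 173 with only the libraries compared; diet in CAST/EiJ 13 with no filter, 395, 12 and 6 under those 3 settings; the NZO/HlLtJ and C57BL/6J diet difference 5 with DESeq2; that of NZO/HlLtJ and CAST/EiJ 236 with no filter, 880, 178 and 234; sex in C57BL/6J 76 with DESeq2 and 19 with only the libraries compared, in NZO/HlLtJ 22 with the latter, and in CAST/EiJ 411 and 10. With each library left out in turn, log2 values ran as follows. Strain: Zfp69 NZO/HlLtJ less C57BL/6J −0.135 to 0.0423, Tbc1d1 NZO/HlLtJ less CAST/EiJ −0.0563 to 0.00777, Abcg1 in the same −0.111 to −0.0597, Tbc1d1 CAST/EiJ less C57BL/6J 0.071 to 0.138 and Zfp69 in the same −0.0205 to 0.0914. Diet in C57BL/6J: Pctp −0.204 to 0.0432, Tbc1d1 −0.0636 to 0.0106, Abcg1 −0.00049 to 0.0403 and Zfp69 −0.152 to 0.0674. Diet in NZO/HlLtJ: Pctp −0.148 to 0.0686, Abcg1 −0.0123 to 0.0401 and Zfp69 −0.269 to 0.0859. The Tbc1d1 diet difference between NZO/HlLtJ and CAST/EiJ ran from −0.258 to −0.149 and the Pctp sex difference in CAST/EiJ from 0.535 to 0.734. Counts of called genes ran from 0 to 2 (diet, C57BL/6J), 7 to 98 (diet, NZO/HlLtJ), 7 to 2681 (diet, CAST/EiJ), 0 to 6 and 78 to 2211 (diet differences of NZO/HlLtJ from C57BL/6J and from CAST/EiJ), 23 to 81 (sex, C57BL/6J) and 16 to 3088 (sex, CAST/EiJ). The labels give no replicate numbers, and no paired analysis was possible because libraries of different groups share no label. Depth limits Ifi202b, Mndal, Zfp69 and Pctp, which had few counts per library.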
